A study of Mus musculus with 6 samples.

Results

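Amino acid transporters are the membrane proteins through which leukaemia cells take up, exchange and recycle amino acids. Their transcripts were examined here in a mouse T-ALL (T-cell acute lymphoblastic leukaemia) labelled wild type or knockout for Phf6, which lies on the X chromosome and encodes a PHD finger protein of the nucleus. Members were chosen by gene name. They were the rows whose symbol starts with Slc1a, Slc6a, Slc7a, Slc36a, Slc38a or Slc43a followed by a digit, or is Slc3a2, with a mean of at least 5 normalised reads over the 6 libraries. Of 46 rows with such names 38 met the minimum, out of 23306 genes in the table. The lowest members were Slc6a19os (mean 5.05) and Slc6a12 (5.65), and the nearest rows outside were Slc1a3 (4.50) and Slc38a5 (3.46). The names also caught 3 loci that are called after a neighbouring transporter and are not transporters themselves (Slc7a6os, Slc36a3os and Slc6a19os), and these are reported apart.

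PolyA RNA was sequenced from isogenic T-ALL of the C57BL/6 strain, harvested from bone marrow, in 2 groups of 3 libraries, Phf6 wild type (WT) and Phf6 knockout (KO). Phf6 was conditional, and intraperitoneal tamoxifen induced the Cre recombinase that deleted it, with corn oil as the vehicle. The labels do not say which samples received which, so drug exposure and gene loss cannot be told apart. The labels do not name the promoter that drives Cre. Each library's column carries a number of its own, but nothing says whether these numbers stand for separate animals, so the p-values measure the spread between these libraries, which may be in part technical. That spread was beyond counting noise, at 11.9 to 51.7 chi-square per degree of freedom between libraries of 1 group.

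Reads assigned to genes numbered 51011800 to 54953145 in the WT libraries and 46067511 to 47110984 in the KO libraries. Phf6 was at 5508, 4240 and 5075 normalised reads in WT libraries 1 to 3 and 1781, 2337 and 1755 in KO libraries 1 to 3, lower in every KO library (limma adjusted p = 0.00184). Phf6 reads were thus still counted in the libraries labelled KO, with a mean of 1958 against 4941 in WT, and the labels do not say which exons were deleted. Summed T-lineage markers lay between 9774 and 10491 CPM (reads scaled to the same total in every library) in WT and between 8874 and 10307 CPM in KO. Of the 23 measured 4 fell and none rose (limma), beside 3.43% and 5.32% of all genes tested. None of the 23 was under 0.1 CPM in every library. Summed neutrophil markers (24 genes) were far lower but differed between the groups, at 156, 560 and 255 CPM in WT libraries 1 to 3 and 1599, 1679 and 1334 CPM in KO libraries 1 to 3 (exact permutation p = 0.1, two-sided, the smallest that 3 against 3 allows). Summed monocyte and macrophage markers (19 measured) ranged from 91.6 to 157 CPM in WT and from 226 to 351 CPM in KO. In bulk RNA, fewer cells of a type and less RNA per cell cannot be told apart.

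Most amino acid transporters work in a few families with distinct coupling. SLC7 light chains are covalently held at the plasma membrane by the heavy chain SLC3A2 (CD98) and exchange one amino acid for another, whereas SLC1, SLC6 and SLC38 members use the sodium gradient and SLC36 members use protons, several of them on lysosomes. Activated and leukaemic T cells are known for high glutamine and leucine uptake, and amino acids at the lysosome switch on the kinase complex mTORC1. When amino acids are short, the kinase GCN2 and the transcription factor ATF4 raise several transporter genes.

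Among the 16 members with a mean of at least 1000 normalised reads, Slc7a6os included, no log2 difference between the genotypes was beyond 0.37 in size. Larger changes lay among members below that mean. The proline transporter gene Slc6a7 rose 7.01-fold and the glycine transporter gene Slc6a9 rose 1.89-fold. The creatine transporter gene Slc6a8 fell to 0.606 of its WT mean. Among the 16 abundant members only the light chain gene Slc7a6 was called, and it fell to 0.777 of its WT mean. Of 34 tested members 29 did not pass the test. The main importers of glutamine and leucine, Slc1a5, Slc7a5 with Slc3a2, Slc38a1 and Slc38a2, were among those not called.

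The test was limma on log2(normalised read + 2), fitted over all 17993 genes with at least 10 normalised reads in at least 3 libraries and adjusted by Benjamini and Hochberg at a threshold of 0.05. Of the 38 members 34 were tested, and 32 of these were transporters, the others being Slc7a6os and Slc36a3os. Slc6a12, Slc6a20a, Slc6a20b and Slc6a19os were too low, and Slc6a13 passed the filter through its KO libraries alone. Slc6a13 stays in the counts of members that follow, on the side of KO above WT. The 5 calls are 14.7% of the members tested, beside 8.75% of all genes tested, 5.32% that rose and 3.43% that fell. The median log2 fold change of the 34 was 0.07 and that of all genes tested -0.01. Groups did not overlap for 16 of the 34 (11 with KO above WT, 5 with KO below), beside 31.2% of all genes tested. By direction, these were 2692 of all 17993 genes with KO above WT and 2921 with KO below. Slc6a13 is among the 11 and entered the test through its KO libraries alone, so it is no support for that side. An unadjusted p under 0.05 was reached by 15 members, beside 25.2% of all genes. On the recovered reads, edgeR called 3 members, beside 7.75% of all genes, and DESeq2 called 6, beside 12.4%.

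**Figure D1:**
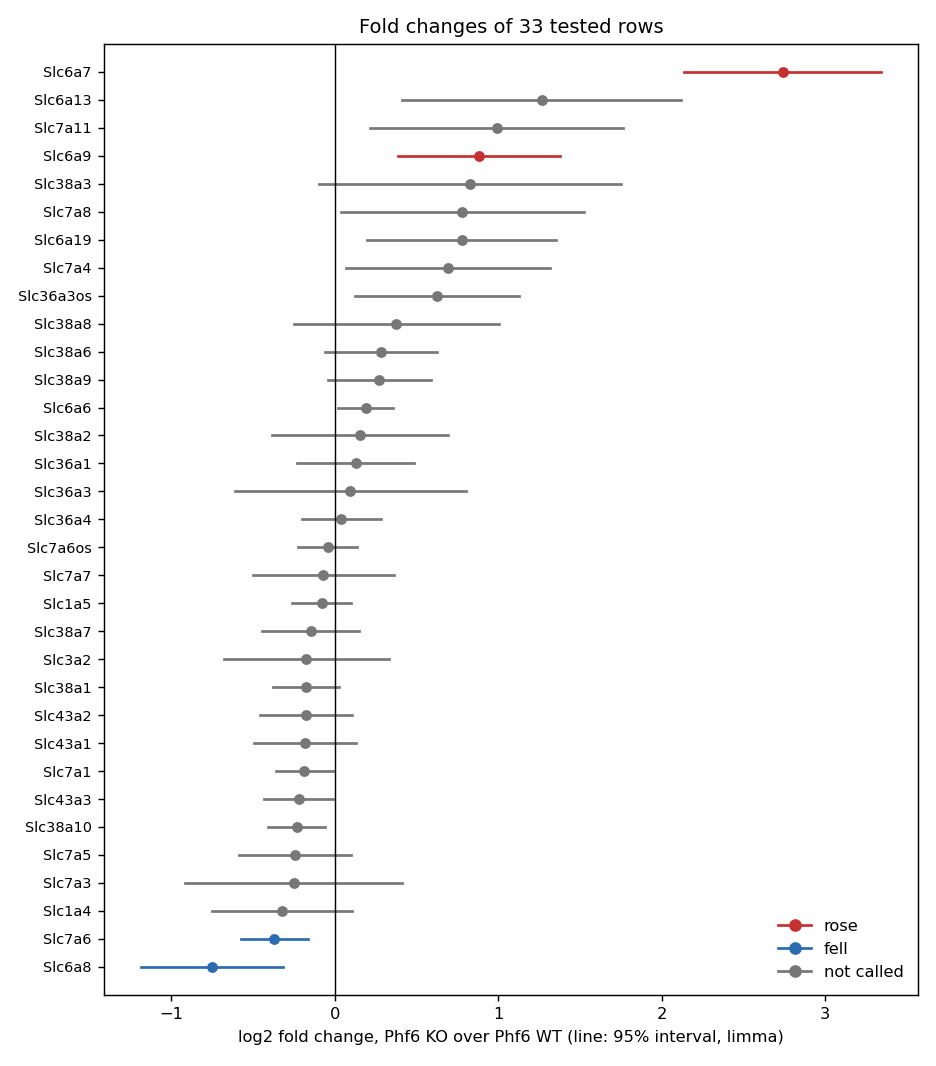
Log2 fold change, Phf6 KO over Phf6 WT, of 33 tested rows on the horizontal axis, with lines for the 95% interval from limma, red for genes that rose, blue for genes that fell and grey for genes not called. Slc6a7 stands at 2.74, Slc6a9 at 0.88 and Slc6a8 at -0.75, and most intervals of the abundant transporters lie close to 0.

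Levels can be set side by side only per length, and the mean over all 6 libraries, in normalised reads per kilobase of annotated exon, ordered the transporters as follows. Slc1a5, the sodium-dependent glutamine exchanger, was highest at 3780 per kilobase. Slc7a5, the light chain that carries leucine and other large neutral amino acids, followed at 3375, and its heavy chain gene Slc3a2 at 3274. These 3 neighbours were not separated by their spread, since Slc3a2 alone ranged from 2648 to 4528 per kilobase over the libraries. They stood above 95% of the genes tested. Slc38a2 came next at 1988, then Slc7a6 at 1430, Slc38a1 at 1148, Slc43a1 at 1134 and Slc38a10 at 1039. The taurine transporter gene Slc6a6 (794) and the arginine and lysine transporter gene Slc7a1 (718) closed the upper group. At the lower end, Slc6a13 (3.89) and Slc7a8 (4.03) were among the scarcest tested.

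**Figure D2:**
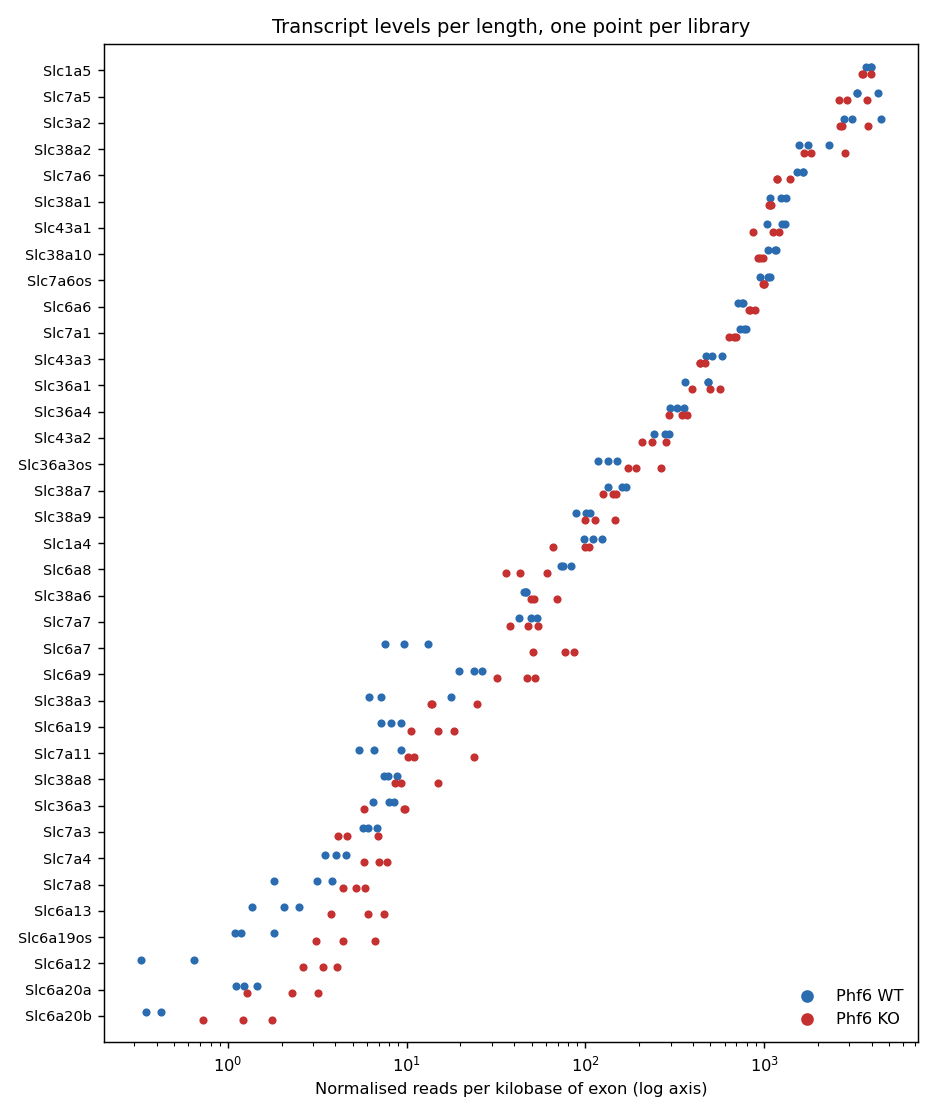
Normalised reads per kilobase of exon on a log axis, with 1 point per library in blue for Phf6 WT and red for Phf6 KO, for 37 members ordered by mean level. The order runs from Slc1a5 at 3780 to Slc6a20b at 0.747 per kilobase, and the red and blue points part clearly for Slc6a7 (libraries listed at 0, for Slc6a12 and Slc6a20b, cannot be drawn on a log axis).

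The level of a transporter went with the sign of its difference, as it did for genes at large. Of the 16 tested members with a mean of at least 1000 normalised reads, 11 had a negative log2 fold change (68.8%, beside 64.3% of all such genes). Of the 18 members below that level 13 had a positive one (72.2%, beside 57.5% of all such genes). The 13 include Slc6a13, which entered the test through its KO libraries alone, so its sign is no support for this pattern. Other genes in the background share may also have entered through 1 group alone.

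The heavy chain and its partners were the first group examined. Slc3a2 (ENSMUSG00000010095; GRCm38 chromosome 19, 8706882 to 8723369, minus strand) was at 10973, 15980 and 9911 normalised reads in WT libraries 1 to 3 and 9668, 13437 and 9346 in KO libraries 1 to 3. The groups overlapped, and library 2 was the highest of each. The log2 fold change was -0.17 with a 95% interval from -0.68 to 0.33 (limma adjusted p = 0.671). Slc7a5 (chromosome 8, 121881150 to 121907694, minus strand) was at 12319, 16010 and 12276 reads in WT and 10774, 13941 and 9758 in KO. It showed the same high library 2 in each group, with a log2 fold change of -0.24 (interval -0.58 to 0.10; limma adjusted p = 0.363).

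Slc7a6, a light chain that exchanges arginine for neutral amino acids together with sodium, was the abundant member that fell. Slc7a6 (ENSMUSG00000031904; chromosome 8, 106168857 to 106198706, plus strand) was at 7561, 7518 and 6980 reads in WT libraries 1 to 3 and 5393, 6378 and 5371 in KO libraries 1 to 3. Every KO library lay below every WT library. The means were 7353 ± 324 and 5714 ± 575 (SD, n = 3), or -0.37 on the log2 scale (SE 0.09; adjusted p = 0.0353 by limma). The call was lost without any 1 of the libraries WT1, WT2, WT3, KO1 or KO3 (adjusted p up to 0.143) and with edgeR (adjusted p = 0.0501).

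Slc7a11, the light chain that imports cystine in exchange for glutamate and so feeds glutathione synthesis, had the largest difference of the light chains without passing the test. It was at 75.1, 91.8 and 129 reads in WT libraries 1 to 3 and 333, 141 and 153 in KO libraries 1 to 3. The groups did not overlap, but KO library 1 stood far above the other two and KO library 2 was close to WT library 3. The means were 98.7 ± 27.7 and 209 ± 107 (SD, n = 3), or 0.99 on the log2 scale (SE 0.34; interval 0.22 to 1.76; limma adjusted p = 0.110). DESeq2 on the recovered reads called it (adjusted p = 0.0166), and edgeR did not (adjusted p = 0.104).

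The promoter of Slc7a11 is shown because it holds a pair of amino acid response elements, the sites through which ATF4 is known to act. Promoter windows of 300 bases, 250 before to 50 after the start site, came from RefSeq (GRCm38.p6), where 27 of the 38 members were found. The motif TGATGNAA, searched on both strands, was in windows of 3 of these 27 genes (Slc7a11, Slc1a4 and Slc7a7; 11.1%) and in windows of 4.51% of all 27025 genes. The 27 genes have 42 windows and all genes 32851, so the members have more windows per gene, which can raise their share by gene. By window, TGATGNAA was in a single window each of Slc7a11 and Slc1a4 and in overlapping windows of Slc7a7, out of 42. It was in 3.97% of all windows. The stretch below is chr3:50443623-50443709, minus strand, with the matches in capitals, and they lie on opposite strands:
Slc7a11: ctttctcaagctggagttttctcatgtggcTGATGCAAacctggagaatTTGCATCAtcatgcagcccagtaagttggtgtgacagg

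The remaining light chains were scarce. Slc7a7, which exports arginine in exchange for neutral amino acids and is known from macrophages and epithelia, was at 161 ± 18.6 reads in WT and 155 ± 27.3 in KO, with overlapping groups and a log2 fold change of -0.07 (limma adjusted p = 0.856). Slc7a8, a broader neutral amino acid light chain, was at 14.6 ± 5.09 and 25.7 ± 3.58 reads, with every KO library above every WT library and no call (log2 fold change 0.78; limma adjusted p = 0.176). Per kilobase, the summed light chains were 1.33 to 1.74 times the heavy chain in the WT libraries and 1.37 to 1.52 times in the KO libraries.

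Among the cationic amino acid transporters, Slc7a1, the widely expressed carrier of arginine and lysine, was at 9094, 8402 and 8935 reads in WT and 7836, 8062 and 7353 in KO. Each KO value was below each WT value, a log2 fold change of -0.19 with an interval from -0.36 to -0.01, which did not pass after adjustment (limma adjusted p = 0.171). Slc7a3 had a log2 fold change of -0.25 (means 23.5 and 19.8 reads) and Slc7a4 of 0.69 (means 16.8 and 28.4 reads), neither of them called. Of the exon bases of Slc7a4, 13.3% are shared with P2rx6 on the opposite strand, and the strand setting of the counting is not given in the sources used here.

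The SLC1 family was represented by its neutral amino acid exchangers. Slc1a5, the most abundant transporter per length, was at 16602, 15490 and 16486 reads in WT and 14872, 14674 and 16523 in KO. The groups overlapped, and the log2 fold change of -0.08 had an interval from -0.26 to 0.10 (limma adjusted p = 0.599). Slc1a4, which carries alanine, serine and cysteine, was at 385, 489 and 434 reads in WT and 392, 411 and 259 in KO. Here KO library 3 alone lay below the WT range (log2 fold change -0.32, interval -0.75 to 0.11; limma adjusted p = 0.332).

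None of the 8 tested members of SLC38, sodium-coupled carriers of glutamine, alanine and other small neutral amino acids, was called. Slc38a1 was at 22945, 18572 and 21536 reads in WT and 18763, 18359 and 18524 in KO. The KO values were close together, and the lowest WT library lay within their range (log2 fold change -0.17, interval -0.38 to 0.03; limma adjusted p = 0.269). Slc38a2, the member that amino acid shortage induces through ATF4, was at 15441, 20256 and 13839 reads in WT and 14842, 24921 and 16133 in KO. Library 2 was again the highest of each group, and the groups overlapped (log2 fold change 0.15, interval -0.39 to 0.69).

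Slc38a10 was at 7209 ± 406 and 6134 ± 199 reads (SD, n = 3), with all KO libraries below all WT libraries (log2 fold change -0.23; limma adjusted p = 0.0981). Slc38a3, which carries glutamine, asparagine and histidine, was at 38, 93.8 and 32.5 reads in WT and 72.0, 131 and 73.2 in KO. WT library 2 lay within the KO range, and the other WT libraries lay below it (log2 fold change 0.83, interval -0.10 to 1.75; limma adjusted p = 0.247). It was called without WT library 2 (adjusted p = 0.0282). Slc38a6 (means 359 and 443 reads) and Slc38a8 (28.1 and 38.2) had log2 fold changes of 0.28 and 0.38, neither called.

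Transporters of the lysosome were measured at moderate levels, and none was called. Slc38a9, which reports lysosomal arginine to mTORC1, was at 1674, 1473 and 1781 reads in WT and 1901, 1665 and 2448 in KO, overlapping at KO library 2 (log2 fold change 0.27, interval -0.04 to 0.59; limma adjusted p = 0.264). Slc38a7, which releases glutamine from lysosomes, was at 640 ± 75.7 and 576 ± 49.8 reads (log2 fold change -0.15). Slc36a1, a proton-coupled exporter of small amino acids on lysosomes, was at 2724, 2031 and 2715 reads in WT and 2796, 2209 and 3183 in KO (log2 fold change 0.13; limma adjusted p = 0.663). Slc36a4 (means 2134 and 2200 reads) and Slc36a3 (18.0 and 19.8 reads) had log2 fold changes of 0.04 and 0.10, and the signs of these, like that of Slc36a1, turned when single libraries were left out.

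The promoters of Slc36a1 and Slc38a7 are shown because both hold the palindrome CACGTG, the core of the E-box bound by MYC and by the lysosomal regulators TFEB and TFE3. It was found in windows of 3 of the 27 matched members (Slc36a1, Slc38a7 and Slc43a1; 11.1%) and of 8.09% of all genes. It does not overlap TGATGNAA in these windows. By window, it was in a single window of each of these 3 genes, out of 42 windows of members. This is near the background, as it was in 7.15% of all windows. The stretches are chr11:55204279-55204339 on the plus strand for Slc36a1 and chr8:95853492-95853555 on the minus strand for Slc38a7, each ending at the base before the start site, with the motif in capitals (Slc36a1 has another match that spans the start site, of which the final 3 bases shown are the beginning):
Slc36a1: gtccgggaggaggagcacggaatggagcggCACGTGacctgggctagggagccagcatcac
Slc38a7: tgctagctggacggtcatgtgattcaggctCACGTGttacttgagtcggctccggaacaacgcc

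The SLC43 family had small negative differences in all 3 members. Slc43a1, a uniporter of leucine and other large neutral amino acids, was at 6871 ± 846 and 6093 ± 1027 reads, a log2 fold change of -0.18. Slc43a2, its close relative, was at 2728 ± 278 and 2428 ± 390 reads, also -0.18. Slc43a3, which is known to carry purine nucleobases rather than amino acids, was at 2330 ± 234 and 1994 ± 81.1 reads, with the highest KO library (2088) below the lowest WT library (2122) and a log2 fold change of -0.22 (interval -0.43 to -0.01; limma adjusted p = 0.185).

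SLC6 held 4 of the 5 calls, 3 rises and 1 fall among 7 tested members. Over all genes tested 5.32% rose and 3.43% fell, and families were not compared by a test. Slc6a7 encodes a high-affinity proline transporter known mainly from brain synapses. Slc6a7 (ENSMUSG00000052026, on chromosome 18) was at 26.0, 45.4 and 33.4 reads in WT libraries 1 to 3 and 265, 174 and 296 in KO libraries 1 to 3. The lowest KO library was more than the WT range away from the highest WT library. The means were 35.0 ± 9.79 and 245 ± 63.1 (SD, n = 3), or 2.74 on the log2 scale (SE 0.27; adjusted p = 0.00155 by limma). At the threshold of 0.05 it was called in all 18 alternative fits, with a log2 fold change between 2.49 and 3.16. KO library 3 had the highest Slc6a7 value and the lowest neutrophil marker sum of its group. WT library 2 had the highest neutrophil marker sum and the highest Slc6a7 value of its group. Summed stromal and endothelial markers ranked the libraries as Slc6a7 did within each group. These sums were 1193, 1219 and 1211 CPM in WT libraries 1 to 3 and 1627, 1515 and 1919 CPM in KO libraries 1 to 3. The WT sums lay close together, and this list was 1 of several measured, shown with its order in view. The part of such cells in the Slc6a7 difference was not tested.

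Slc6a9 encodes the glycine transporter that haematopoietic cells of the red lineage are known to use for haem synthesis. Slc6a9 (ENSMUSG00000028542; chromosome 4, 117834506 to 117875198, plus strand) was at 122, 135 and 101 reads in WT and 164, 270 and 243 in KO. The groups did not overlap, with KO library 1 nearest to the WT libraries. The means were 120 ± 17.2 and 226 ± 55.2 (SD, n = 3), or 0.88 on the log2 scale (SE 0.22; adjusted p = 0.0374 by limma). The call was lost without WT library 1, WT library 3, KO library 2 or KO library 3 (adjusted p up to 0.149), and with limma without trend and robust variance (adjusted p = 0.0866). Of its exon bases 27.8% are shared with Ccdc24, 9.94% with Gm17114 and 0.895% with B4galt2, all on the opposite strand. The strand setting of the counting is not given, so reads of these genes may be included. Erythroid markers summed to between 374 and 448 CPM in WT and between 351 and 416 CPM in KO. None of 12 tested was called (limma), beside 8.75% of all genes tested. Summed monocyte and macrophage markers ranked the libraries as Slc6a9 did within each group. These sums were 115, 157 and 91.6 CPM in WT libraries 1 to 3 and 226, 351 and 303 CPM in KO libraries 1 to 3. This list too was 1 of several measured, shown with its order in view. The part of either cell type in the Slc6a9 difference was not tested.

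Slc6a6 and Slc6a19 went the same way without being called. Slc6a6, the taurine transporter gene and the most abundant of the family, was at 6050, 6337 and 6430 reads in WT and 6932, 7505 and 7031 in KO, each KO library above each WT library (log2 fold change 0.19, interval 0.02 to 0.36; limma adjusted p = 0.153). Slc6a19, a neutral amino acid transporter known from intestine and kidney, was at 41.0, 46.4 and 36.2 reads in WT and 75.1, 53.0 and 92.3 in KO (log2 fold change 0.78; limma adjusted p = 0.0943).

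Slc6a8 was the SLC6 member that fell. It encodes the creatine transporter and lies, like Phf6, on the X chromosome (ENSMUSG00000019558; 73673150 to 73682502, plus strand). Slc6a8 was at 381, 431 and 389 reads in WT libraries 1 to 3 and 225, 316 and 187 in KO libraries 1 to 3. Every KO library was below every WT library. The means were 400.2 ± 26.6 and 243 ± 66.3 (SD, n = 3), or -0.75 on the log2 scale (SE 0.19; adjusted p = 0.0419 by limma). The call was lost without any 1 of the libraries WT1, WT2, WT3, KO1 or KO3 (adjusted p up to 0.144) and with edgeR (adjusted p = 0.0669).

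The GABA and betaine transporter genes Slc6a13 and Slc6a12 lie next to each other on chromosome 6 and were near the limit of detection. Slc6a13 was at 6.01, 3.95 and 7.23 reads in WT and 17.7, 21.8 and 11 in KO (log2 fold change 1.27; limma adjusted p = 0.0706). It entered the test through its KO libraries alone, so no rise is drawn from these values. Slc6a12, too low for the test, was at 1, 1.98 and 0 reads in WT and 12.5, 10.4 and 8.02 in KO. The closely related pair Slc6a20a and Slc6a20b, carriers of proline and other imino acids between which reads may be split, had means of 5.15 and 2.19 reads in WT and 9.20 and 10.6 in KO. Of the exon bases of Slc6a20b 21.1% are shared with Sacm1l on the opposite strand, and of those of Slc6a20a 13.8% with Gm17120. No fold is drawn from the untested Slc6a12, Slc6a20a and Slc6a20b.

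**Figure D3:**
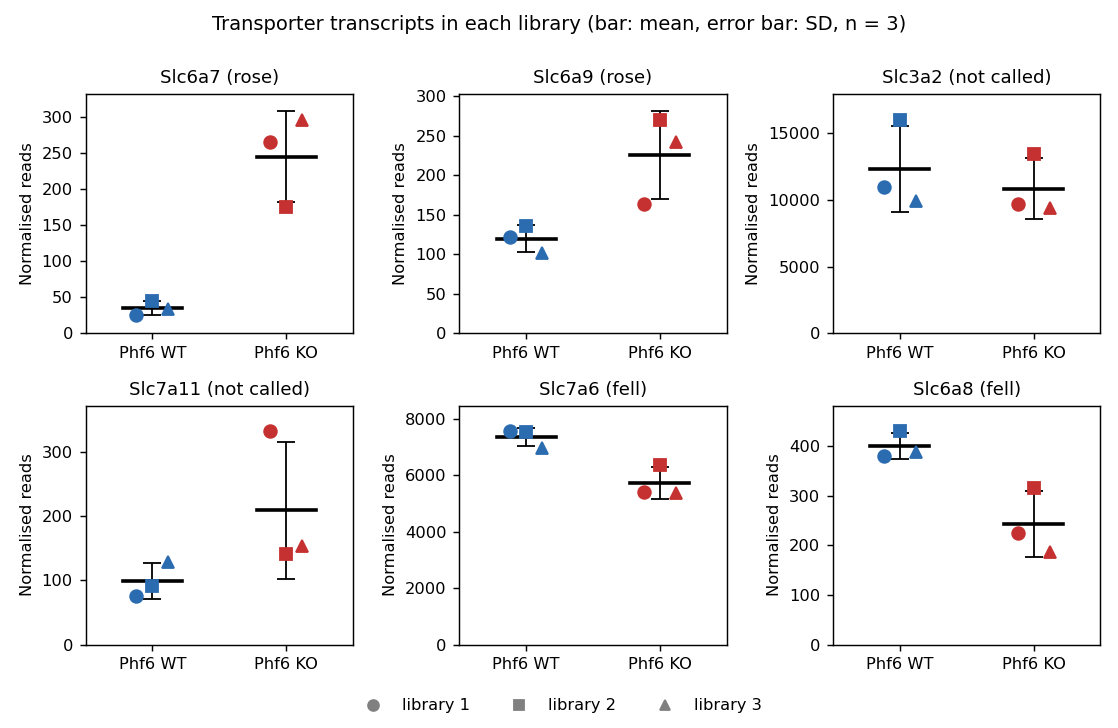
Normalised reads of 6 transporter genes in each library, on axes that start at 0, with blue for Phf6 WT, red for Phf6 KO, marker shape for the library number, bars for the group means and vertical lines for 1 SD to either side (n = 3). Slc6a7 runs from 26.0 to 45.4 reads in WT and from 174 to 296 in KO, while Slc7a11 owes its spread in KO to library 1 at 333 reads.

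The loci named after neighbouring transporters did not pass the test either. Slc7a6os, which encodes a protein that helps RNA polymerase II reach the nucleus and lies beside Slc7a6, was at 4323 ± 291 and 4189 ± 46.8 reads, with a log2 fold change of -0.04 and an interval from -0.22 to 0.14, whereas Slc7a6 itself fell. Slc36a3os, an antisense locus inside Slc36a3, was at 61.1, 69.1 and 77.7 reads in WT and 100.1, 138 and 90.3 in KO (log2 fold change 0.63; limma adjusted p = 0.115). Slc6a19os was at 2.26 and 7.84 reads on average and was not tested.

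The rises in Slc6a7 and Slc6a9 stood beside higher markers of other cell types in the KO libraries. Of the 24 neutrophil markers 11 rose and none fell, of 19 monocyte and macrophage markers 6 rose and none fell, and of 15 tested B-cell markers 9 rose and 1 fell (limma). Over all genes tested 5.32% rose and 3.43% fell. Markers of stroma and endothelium (8 tested) rose in 3 cases and fell in 1, and their sum ran from 1193 to 1219 CPM in WT and from 1515 to 1919 CPM in KO. The B-cell sum, which includes Rag1 of the T-lineage list, was nevertheless lower in KO, at 265 to 364 CPM against 385 to 505 CPM in WT. Megakaryocyte markers summed to 4.53 to 4.90 CPM in WT and 7.90 to 12.5 CPM in KO, and NK and dendritic cell markers to 33.4 to 34.5 CPM in WT and 37.1 to 44.7 CPM in KO, so both were low and higher in every KO library. The part of such cells in the transporter differences was not tested.

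A second pattern among the transporters ran between libraries of 1 group. Both libraries numbered 2 were set apart from libraries 1 and 3. Of the 34 tested members 7 were highest in library 2 of both groups (Slc3a2, Slc7a5, Slc38a2, Slc38a3, Slc1a4, Slc6a8 and Slc6a9) and 8 were lowest there (Slc1a5, Slc38a1, Slc38a7, Slc38a9, Slc38a10, Slc36a1, Slc43a1 and Slc43a2). These shares, 20.6% and 23.5%, lie beside 20.9% and 18.7% of all genes tested, so the number of members was near the background.

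The members that were highest there included the heavy chain, its leucine-carrying partner and Slc38a2. Slc3a2 in library 2 was 1.30 times its group mean in WT and 1.24 times in KO, Slc7a5 1.18 and 1.21 times, and Slc38a2 1.23 and 1.34 times. Atf4 was also highest in library 2 of both groups. It was at 11723, 20312 and 10088 reads in WT libraries 1 to 3 and 10297, 18602 and 10729 in KO libraries 1 to 3, and Ddit3, a stress factor gene downstream of ATF4, at 1011, 1911 and 936 reads in WT and 983, 2117 and 1229 in KO. Myc went the other way, at 12128, 7029 and 15791 reads in WT and 13802, 6196 and 12003 in KO. Of 24 tested genes of the GCN2 and ATF4 response, 12 were highest in library 2 of both groups and 1 was lowest. Asns of this list was highest in WT library 2 but lowest in KO library 2. Of the members with TGATGNAA in their windows, Slc1a4 was highest in library 2 of both groups, and Slc7a11 and Slc7a7 were not. Slc7a11 was at 91.8 reads in WT library 2, within the WT range, and at 141 in KO library 2, the lowest of its group. The labels give no batch or date that sets the libraries numbered 2 apart, and the source of the pattern was not tested.

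**Figure D4:**
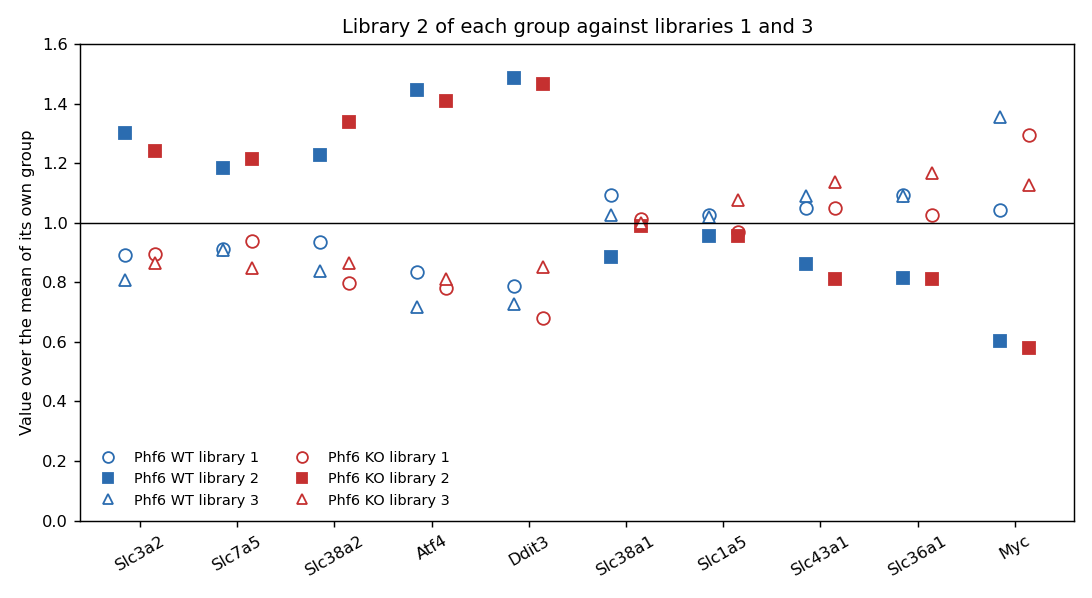
Value of each library divided by the mean of its own group, on an axis from 0, for 7 transporter genes and for Atf4, Ddit3 and Myc, with filled squares for library 2, open circles for library 1 and open triangles for library 3. The squares lie above 1 for Slc3a2, Slc7a5, Slc38a2, Atf4 and Ddit3, reaching 1.49 for Ddit3, and below 1 for the other genes, down to 0.581 for Myc.

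Genes around amino acid transport were followed in lists that overlap in part, beside all genes tested, of which 5.32% rose and 3.43% fell. In the list of 24 tested genes of the GCN2 and ATF4 response, 7 fell and 1 rose, and the list's median was -0.05 on the log2 scale. Those that fell with the smallest p encode biosynthetic enzymes, Aldh18a1 for proline (-0.63), Shmt2 (-0.52), Mthfd2 (-0.53) and Psat1 (-0.46) for serine and folate metabolism, besides the transcription factor gene Cebpg (-0.57). Asparagine synthetase, Asns, rose from 26.0, 30.6 and 17.2 reads in WT to 72.0, 59.2 and 77.2 in KO (log2 fold change 1.45; limma adjusted p = 0.0130). Without KO library 3 Asns was not called (adjusted p = 0.0802 by limma). The calls for Aldh18a1 and Shmt2 held without each single library, whereas Psat1 was lost without WT1, WT3 or KO3, Mthfd2 without WT1, WT3, KO1 or KO3 and Cebpg without every library but WT2 (adjusted p up to 0.141). Atf4 itself had a log2 fold change of -0.08 (limma adjusted p = 0.924).

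In the list on glutamine, glutamate and branched-chain amino acids 3 of 25 tested genes fell and none rose, with a median of -0.15. Over all genes tested 3.43% fell and 5.32% rose. Bcat1, the cytosolic transaminase of leucine, isoleucine and valine, was at 446, 354 and 477 reads in WT and 184, 112 and 128 in KO. All KO libraries lay far below all WT libraries, a log2 fold change of -1.60 (SE 0.21; adjusted p = 0.00405 by limma), and the call held without each single library. Aldh18a1 and Pycrl (-0.40), which act in proline synthesis, were the others, and Pycrl was not called without WT1, WT3, KO2 or KO3 (adjusted p up to 0.122).

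Of the 42 tested genes of amino acid sensing by mTORC1, 2 fell and 1 rose, with a median of 0.00, a share near the background. Lars, the leucyl-tRNA synthetase that also senses leucine, had a log2 fold change of -0.37 and Tsc2, a brake on mTORC1, of -0.44, and Mios, a subunit of the GATOR complex, rose by 0.38. Each of these calls was lost without WT1, WT3 or KO3, and also without KO1 for Lars and Mios and KO2 for Tsc2 (adjusted p up to 0.125 by limma). Mtor had a log2 fold change of -0.13 (limma adjusted p = 0.345). Of 17 tested genes of glutathione synthesis and its regulator NRF2, 2 rose and none fell, near the 8.75% of all genes called. The 2 were the glutathione reductase gene Gsr (0.38) and Ggt5 (1.45). Both calls were lost without WT1, WT3, KO1 or KO3, and Gsr also without KO2 (adjusted p up to 0.102). Nfe2l2, the gene of NRF2, was not called (-0.15; limma adjusted p = 0.497).

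Transporters of amino acids, peptides and related solutes outside the member families were tested in 29 genes, of which 2 rose and 1 fell. This share was near the 8.75% called over all genes tested. Slc15a2, a peptide transporter gene, was at 4083, 3773 and 3961 reads in WT and 5241, 5125 and 6660 in KO (log2 fold change 0.52; limma adjusted p = 0.0193). Slc22a4, a carrier of ergothioneine, rose by 2.21 from low levels, and Slc19a1, the folate carrier, was the gene that fell (-0.41). All 3 calls were lost without WT1 or KO3, and Slc15a2 also without WT3 (adjusted p up to 0.0850 by limma). Among 8 transcription factor genes known to act on transporter genes Trp53 fell (-0.66; limma adjusted p = 0.0038, and called without each single library), and Myc was not called (-0.13; limma adjusted p = 0.893).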

How the data were processed

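The submitters' processing notes list the tools bcl2fastq (1.8.4), STAR (2.6.0a), featureCounts and DESeq2 and the build GRCm38. Strand setting and annotation: not given in the sources used here. The deposited values are a signal, the authors' counts per gene after division by a size factor of each library. The evidence is in the values themselves: dividing by each library's smallest step gave whole reads for 100% of values (tolerance 0.01). Of 23314 rows, 8 without a gene identifier (at most 0.00106% of reads) were left out.

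The main test was limma 3.58.1 (R 4.3.3) with trend and robust empirical Bayes on log2(value + 2), which understates fold changes of low genes. edgeR 4.0.16 and DESeq2 1.42.0 on the recovered reads were alternatives. The fit was tested on simulated counts with known changes. It recovered 89 of 100 2-fold changes and 69 of 100 1.5-fold changes, and 12 of its 170 calls were false. The simulated libraries were independent with an assumed spread and lacked the library 2 pattern, so error rates in the real data may differ. GENCODE M21 gave positions and exon lengths. Marker sums are reads in CPM of assigned reads.

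Members, gene lists and the naming rule were chosen with earlier results of these data known. The rule names every called member (1 is counted but not reported here), a set of main transporters, the highest of each role group and separated genes with a log2 fold change of at least 1, and of each list the called genes, at most 6 by p, with Atf4, Myc, Mtor, Nfe2l2 and Asns. Ddit3 in the library 2 comparison and members shown beyond the rule were picked with their values in view. Figures used Python 3.11.15 and matplotlib 3.10.9.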

Additional observations from a re-analysis of the deposited data

How the results depend on the processing

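The 34 tested genes kept the direction of their fold change under most of 18 alternative fits. Transporter genes called lower numbered 0, against 2, with library totals, with edgeR's quasi-likelihood test, with limma without trend and robust variance, and at a threshold of 0.01. Transporter genes called higher numbered 1 at a threshold of 0.01 and 5 at 0.10, against 3. Leaving out 1 library gave between 1 and 4 called higher and between 0 and 2 called lower. Over all genes the same omissions gave 180 to 1155 higher and 73 to 786 lower, against 957 and 618, with the fewest without KO library 3.

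Library totals gave 1213 genes higher and 300 lower, limma without trend and robust variance 528 and 124, the threshold of 0.01 gave 274 and 89 and that of 0.10 gave 1491 and 1214. Without library 2 in both groups, an alternative chosen after seeing the data, 974 genes were called lower and 1253 higher. Of the transporters Slc38a3 (adjusted p = 0.0440) and Slc6a19 (adjusted p = 0.0330) were then called by limma and Slc6a9 was not. The same replicate numbers in both groups do not pair the libraries by the labels, and deviations of same-numbered libraries correlated at 0.012, 0.50 and 0.143. With the replicate number as a block 1459 genes were called higher and 1109 lower, 4 and 2 of them transporter genes, with Slc38a3 (adjusted p = 0.0355) added to those called higher.

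Signs turned for uncalled genes with log2 fold changes near 0, and the cause was not tested. With library totals Slc1a5 was at 0.0059, Slc7a6os at 0.041 and Slc7a7 at 0.012. Without library 2 in both groups Slc36a4 was at -0.047. Leaving out single libraries gave Slc3a2 -0.339 to 0.033 (positive without WT library 2), Slc38a2 -0.075 to 0.311 (negative without KO library 2), Slc36a1 -0.011 to 0.274 (negative without WT library 2), Slc36a3 -0.021 to 0.323 (negative without WT library 3, KO library 2 or KO library 3), Slc36a4 -0.028 to 0.133 (negative without WT library 2 or KO library 1) and Slc7a7 -0.185 to 0.071 (positive without WT library 2 or KO library 3). Depth limits the genes under 10 normalised reads, where 4 members were not tested.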
